A study of Mus musculus with 8 samples.

Results

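The Runx transcription factors and the ETO family of corepressors were examined through the DNA methylation of 7 genes: Runx1, Runx2, Runx3, Cbfb, Runx1t1, Cbfa2t2 and Cbfa2t3. They are 7 of 17843 autosomal protein-coding genes with at least 1 measured CpG. The CpGs of a gene were those from 5 kb before to 5 kb after its RefSeq coordinates with at least 10 reads in at least 3 mice of each group, after both strands of a CpG were added. This left 1411 of the 4593 CpGs listed for any mouse in these genes, and 1237 of the 1411 were covered in all 8 mice. A 1 kb window in Cbfa2t3 belongs to the set because it differed between the genotypes in these same mice, so its values and those of its CpGs are described here without a test.

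The assay was enhanced reduced representation bisulfite sequencing, which reads CpG-rich restriction fragments and tells methylated from unmethylated cytosine by conversion of the latter with bisulfite. Hematopoietic stem cells came from the bone marrow of single C57BL/6 mice, sorted as Lin-, c-Kit+, Sca-1+, Flk2-, CD150+ and CD48- and not cultured. The 4 knockout mice carried loxP-flanked Atg12, a gene needed for autophagosome formation, together with Mx1-Cre. The 4 control mice are called wild type in their labels, while the design text of the series describes loxP-flanked Atg12 without Cre, so their alleles are uncertain. Mice of both groups received poly(I:C) at 4 weeks of age, and cells were taken 2 to 3 months later. Mx1-Cre is switched on by interferon, which poly(I:C) induces, and it is not restricted to stem cells. Methylation levels do not show the deletion, so the genotype labels were not checked against Atg12.

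Runx1, Runx2 and Runx3 bind DNA through their Runt domain, and Cbfb encodes the partner CBFβ, which does not bind DNA itself and strengthens the binding of all of them. Runx1 with CBFβ is required for blood stem cells to form in the embryo. Runx1t1 (ETO), Cbfa2t2 (MTGR1) and Cbfa2t3 (ETO2, MTG16) encode corepressors that do not bind DNA on their own and recruit histone deacetylase complexes; Cbfa2t3 also acts with the TAL1 complex in blood progenitors. Each Runx gene can be transcribed from a distal start or from a CpG-rich start further downstream.

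The starts listed by RefSeq (GRCm38.p6) are shown first, since the methylation levels below turn on how they differ. The RefSeq promoter set used here held 9 starts for 6 of the genes, and no entry in it matched Runx1t1. Each sequence runs from 250 bases before to 50 bases after the start, 5′ to 3′ along the gene, with CpGs in capitals. The distal starts of the Runx genes held few CpGs:
Runx1 distal start, chr16:92826025-92826324, minus strand: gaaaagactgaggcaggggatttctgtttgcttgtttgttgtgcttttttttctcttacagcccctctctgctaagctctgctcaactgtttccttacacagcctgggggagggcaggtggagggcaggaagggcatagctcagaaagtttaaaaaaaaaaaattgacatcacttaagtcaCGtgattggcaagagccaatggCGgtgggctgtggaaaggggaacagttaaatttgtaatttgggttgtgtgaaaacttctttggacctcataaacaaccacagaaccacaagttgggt
Runx2 start, chr17:44814578-44814877, minus strand: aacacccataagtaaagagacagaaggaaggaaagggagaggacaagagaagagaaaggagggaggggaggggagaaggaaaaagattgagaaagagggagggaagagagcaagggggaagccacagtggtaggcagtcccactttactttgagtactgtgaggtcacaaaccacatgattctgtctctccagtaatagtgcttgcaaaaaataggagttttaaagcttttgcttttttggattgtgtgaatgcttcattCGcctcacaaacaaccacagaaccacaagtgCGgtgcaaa
Runx3 distal start, chr4:135120395-135120694, plus strand: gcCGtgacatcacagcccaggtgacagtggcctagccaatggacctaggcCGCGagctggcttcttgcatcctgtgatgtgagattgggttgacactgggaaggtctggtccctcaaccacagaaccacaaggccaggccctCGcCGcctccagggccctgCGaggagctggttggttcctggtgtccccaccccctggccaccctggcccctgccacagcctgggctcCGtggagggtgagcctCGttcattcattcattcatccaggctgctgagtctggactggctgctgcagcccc
The first and second of these held 2 CpGs each and the Runx3 sequence held 8. None of these 12 CpGs met the coverage rule, so the methylation of the distal Runx start sequences themselves was not measurable in these libraries.

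The longest run of letters common to all 3 distal sequences was 18 bases long. It is shown with the Runx recognition letters ACCACA, the reverse complement of TGTGGT, in capitals:
shared run: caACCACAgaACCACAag
Its first base lay 26 bases after the listed start of Runx1 (chr16:92826031-92826048), 21 bases after that of Runx2 (chr17:44814589-44814606) and 136 bases before that of Runx3 (chr4:135120509-135120526). Of 31365 RefSeq promoter sequences of the same length, 4 held this run on either strand. They were those of Runx1, Runx2, Runx3 and Gm16225, a long noncoding RNA on the opposite strand whose promoter sequence overlaps that of Runx3. TGTGGT or its reverse complement occurred in 3 of the 9 listed promoters, the same 3 distal ones, and in 16.7% of all promoters. A match of letters is a description of the sequence and not a measured binding site.

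The downstream starts of Runx1, Runx3 and Cbfa2t3 were dense in CpGs and were measured well:
Runx1 downstream start, chr16:92697280-92697579, minus strand: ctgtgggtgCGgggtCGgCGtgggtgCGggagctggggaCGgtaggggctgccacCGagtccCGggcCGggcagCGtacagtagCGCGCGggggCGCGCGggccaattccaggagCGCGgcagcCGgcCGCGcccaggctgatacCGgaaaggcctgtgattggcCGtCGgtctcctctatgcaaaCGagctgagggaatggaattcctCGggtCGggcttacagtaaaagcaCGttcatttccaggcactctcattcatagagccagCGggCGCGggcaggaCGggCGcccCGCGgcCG
Runx3 downstream start, chr4:135152295-135152594, plus strand: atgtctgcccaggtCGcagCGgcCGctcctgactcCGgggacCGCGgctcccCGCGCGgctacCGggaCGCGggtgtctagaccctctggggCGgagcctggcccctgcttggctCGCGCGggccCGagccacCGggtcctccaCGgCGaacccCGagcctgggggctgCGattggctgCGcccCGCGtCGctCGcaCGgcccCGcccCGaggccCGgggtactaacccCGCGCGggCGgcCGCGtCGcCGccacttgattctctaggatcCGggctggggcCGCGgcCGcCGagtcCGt
Cbfa2t3 downstream start, chr8:122678126-122678425, minus strand: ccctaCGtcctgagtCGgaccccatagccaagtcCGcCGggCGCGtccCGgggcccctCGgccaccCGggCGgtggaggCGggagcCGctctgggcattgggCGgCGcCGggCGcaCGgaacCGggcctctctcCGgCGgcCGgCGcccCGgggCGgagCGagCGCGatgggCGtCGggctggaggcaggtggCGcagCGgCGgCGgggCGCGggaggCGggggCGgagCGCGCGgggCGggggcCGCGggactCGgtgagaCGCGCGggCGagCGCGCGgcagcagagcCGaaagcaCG
The Runx1 sequence held 35 CpGs, of which 29 were measured at mean levels of 0 to 0.953%. In the Runx3 sequence, 37 of 45 CpGs were kept, at 0 to 2.43%. The others were listed in all 8 mice, at means of 0 to 0.742%, and were dropped by the upper limit on coverage. The Cbfa2t3 sequence held 53 CpGs, of which 29 were measured at 0 to 2.49%. All 3 stretches were therefore close to free of methylation at every measured CpG, in contrast to much of the gene bodies below.

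The libraries listed 2038266 to 3366162 cytosines with at least 10 reads, and over the CpGs of these genes covered in all 8 mice the median coverage was 205 to 277 reads per mouse. Libraries differed in how well methylated CpGs were covered. The ratio of median coverage at always methylated to always unmethylated CpGs was lowest in control mouse 34 (0.178) and knockout mouse 25 (0.244), and 0.326 to 0.560 in the other 6 mice. Window levels below are weighted by reads, and the values with each CpG weighted equally are given beside those of the named windows. Sex is not given in the labels, but all 4 knockouts had 7.90 to 9.01 of each 10000 listed cytosines on chromosome Y against 1.15 to 1.83 in the controls. Chromosome X went the other way, with 1.83 to 1.93% of listed cytosines in the knockouts against 2.42 to 2.54% in the controls. Genotype and whatever sets these differences, which may be sex, cannot be told apart. Starts of 7 of 8 genes active in blood stem cells were measured and none had a mean over the 8 mice above 0.358%. The highest value in a single mouse was 0.726%, at Meis1 in control mouse 34. The starts of the T cell and the neutrophil marker genes had fewer than 3 CpGs covered in all 8 mice. The sort could therefore not be checked against them. Of the B cell markers Pax5 was measured, at 4.85% over 5 CpGs, and ranged from 0 to 12.95% over the mice. Of the erythroid markers, Klf1 had 0.517% over 15 CpGs. Epor had 22.4% over 3 CpGs, from 6.73% in knockout mouse 28 to 66.7% in knockout mouse 45. Since 83.8% of all measured gene starts were under 5%, low values at these starts do not test the sort.

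Of the 1411 CpGs, 61.5% had a mean level under 5%, 23.1% lay from 5 to 95% and 15.4% lay above 95%. Over all 1268535 autosomal CpGs that met the same coverage rule, these shares were 56.0%, 24.6% and 19.4%. The genes differed widely among themselves. In Cbfb (139 CpGs), Cbfa2t2 (67 CpGs) and Runx1t1 (120 CpGs), 95%, 97.0% and 88.3% of CpGs were under 5%. The share was 69.5% in Runx2 (269 CpGs), 52.4% in Cbfa2t3 (248 CpGs), 50.5% in Runx3 (299 CpGs) and 36.1% in Runx1 (269 CpGs), where 30.1% of CpGs were above 95%. Since CpG islands are sampled most densely by this assay, a gene mean reflects which CpGs were read and not the methylation of the whole gene.

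Averaged over its CpGs with equal weight, Runx1 was the most methylated of the 7 genes. The means of the knockout mice 25, 28, 45 and 46 were 53.3%, 53.1%, 51.0% and 51.2%, and those of the control mice 1, 34, 36 and 37 were 51.9%, 51.5%, 51.8% and 52.8%. The groups overlapped, with means of 52.1 ± 1.24% and 52.0 ± 0.568% (SD, n = 4 mice each; limma adjusted p = 0.995). None of 14887 gene means was called at an adjusted p under 0.05 (0%), although 670 genes (4.50%) had an unadjusted p under 0.05.

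Runx3 came next in level, together with Cbfa2t3. Its mean was 30.5%, 29.9%, 32.8% and 36.6% in the knockouts against 31.0%, 27.1%, 31.1% and 29.9% in the controls, in the same order of mice. Knockout mouse 46 was the highest of the 8 and control mouse 34 the lowest, and the remaining 6 overlapped. The difference of 2.70 percentage points (SE 1.56) was not called (limma adjusted p = 0.989), and it became -0.78 when CpGs were weighted by coverage. It was 1.32 points without knockout mouse 46. Cbfa2t3 had 31.6 ± 0.844% in the knockouts against 30.6 ± 1.37% in the controls, and is given without a test because the mean includes the chosen window. The difference was 0.996 points, 0.332 without control mouse 34, 0.662 without knockout mouse 45, and -3.46 with CpGs weighted by coverage.

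Runx2 was lower, at 22.5 ± 0.317% in the knockouts against 22.6 ± 0.235% in the controls. The other 3 genes had means of 4.44 ± 0.498% and 4.21 ± 0.673% (Runx1t1), 3.30 ± 0.101% and 3.03 ± 0.215% (Cbfa2t2), and 2.33 ± 0.110% and 2.30 ± 0.0696% (Cbfb). The groups overlapped in Runx1t1 and Cbfb. In Cbfa2t2 the lowest knockout (3.20%) lay just above the highest control (3.19%), with a limma adjusted p of 0.989; the groups of 2.73% of all gene means did not overlap. The Cbfa2t2 difference was 0.270 points, 0.166 without control mouse 34, and -0.63 with CpGs weighted by coverage. In the order of the levels, Runx3 and Cbfa2t3 were neighbours whose ranges over the mice overlapped, whereas the gap between Runx1 and Runx3 exceeded the spread between mice.

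**Figure D1:**
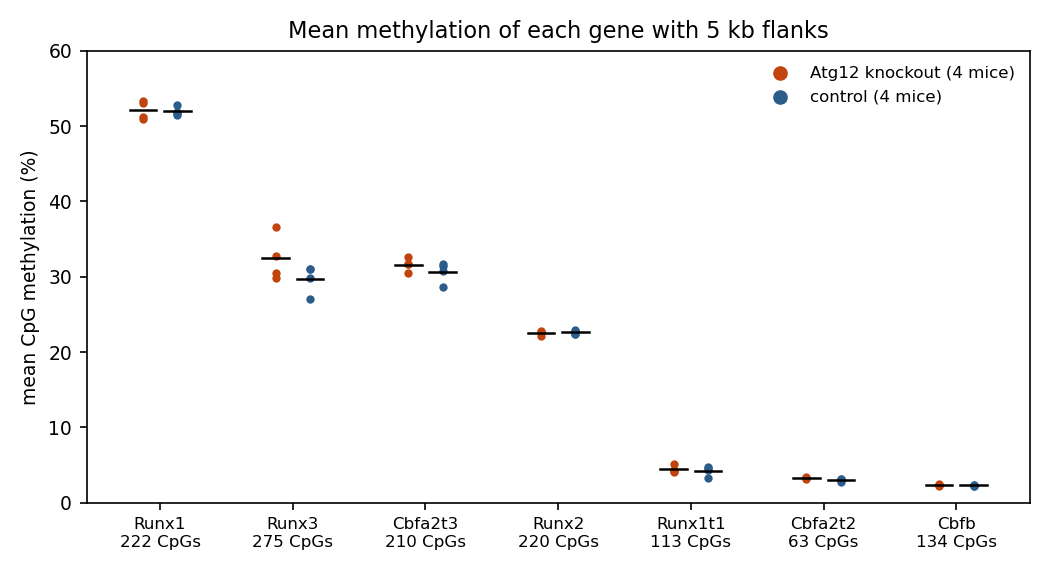
Mean methylation (percent, y axis) over the CpGs of each gene with 5 kb flanks that were covered in all 8 mice; points are mice, black bars are group means, n = 4 per group. Runx1 lies near 52% and Cbfb, Cbfa2t2 and Runx1t1 lie under 6%, and knockouts and controls lie close together within each gene.

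Methylation around the starts was low wherever it could be measured at a CpG-rich start. Within 1 kb of the start, means over the 8 mice were 0.118% for Cbfb (125 CpGs covered in all mice), 0.112% for Cbfa2t2 (61 CpGs) and 0.956% for the downstream start of Cbfa2t3 (116 CpGs). The value was 0.433% at the CpG-rich end of Runx1t1 (64 CpGs), which was used because no start was listed. The downstream start of Runx1 had 2.09% (67 CpGs) and that of Runx3 1.32% (117 CpGs). Of all 10869 gene starts with at least 3 CpGs measured this way, 9105 were under 5%.

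CpGs near the distal starts were fewer and less alike. The distal start of Cbfa2t3 had 0.692% over 11 CpGs, and no CpG was measured within 1 kb of the listed Runx2 start. Near the distal Runx1 start the 2 measured CpGs were listed at 0 in every mouse except knockout mouse 28 (0.301%). Near the distal Runx3 start the 2 measured CpGs had 100% in 6 mice, 97.9% in knockout mouse 28 and 50% in knockout mouse 45, with only 25 to 96 reads per mouse. The 2 CpGs of each gene lay 500 to 1000 bp downstream of the start, outside the printed sequence, so they do not give the level of the start itself. Inside the printed sequences, 0% was listed at the Runx3 CpGs 135120624 and 135120640 in control mouse 1 only. The Runx1 CpG 92826120 was listed in knockout mouse 28 only, also at 0%.

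At the downstream Runx3 start the groups did not overlap. The 1 kb values were 1.18%, 1.16%, 0.95% and 1.05% in the knockouts against 1.47%, 1.43%, 1.60% and 1.73% in the controls. Such a separation in either direction was present at 2.68% of all measured gene starts, and at 1.54% with the knockouts lower. The knockout minus control difference was -0.473 points. Among these CpGs, 2 lay 500 to 1000 bp before the start and were partly methylated, at 30.3 ± 16% in the knockouts against 55.9 ± 4.90%. The 134 CpGs of the CpG-dense stretch chr4:135152001-135154000, which leaves those 2 out, had 0.591 ± 0.267% and 0.656 ± 0.0675%, and the groups overlapped.

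Stretches almost free of methylation also occurred away from listed starts. Of 84 windows of 1 kb with at least 3 CpGs covered in all mice, 27 had a mean under 5%, 38 lay from 5 to 95% and 19 lay above 95%. Over all 87763 autosomal windows, 27.9% were under 5% and 26.7% above 95%. The centres of 14 of the 27 low windows lay within 1.5 kb of a listed start (for Runx1t1, of its CpG-rich end) and 13 lay farther away, while none of the 19 windows above 95% lay within 1.5 kb.

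Runx2 held the longest such stretch. Over chr17:44733001-44738000, from 76.6 to 81.6 kb downstream of its listed start and inside the gene, 126 CpGs averaged 0.226%, with no mouse above 0.586%. The reference table lists no Runx2 start in this stretch. A further 36 CpGs at chr17:44777001-44778000, 36.6 to 37.6 kb downstream of the same start, averaged 0.159%. Runx1 had low windows 24.6 and 42.6 kb downstream of its distal start, at 0.389% and 2.01% (3 CpGs each). Low windows of 4 CpGs lay 41.9 and 42.9 kb into Runx1t1, at 1.43% and 0.934%, and a window of 3 CpGs lay 11.7 kb downstream of the second Cbfa2t3 start, at 2.57%. These intragenic stretches were low in knockouts and controls alike.

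**Figure D2:**
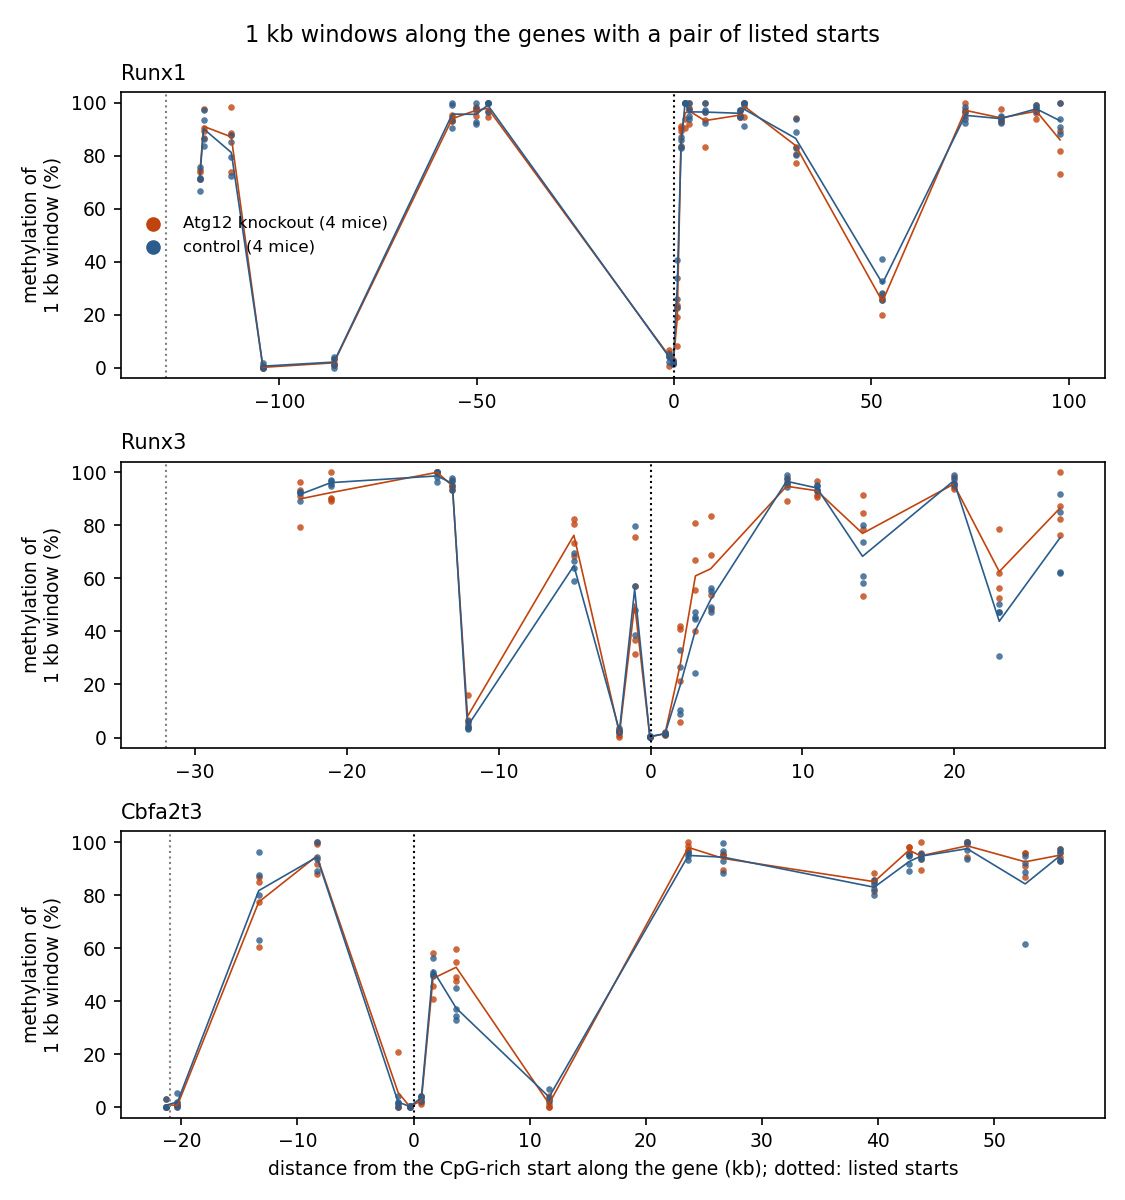
Methylation (percent, y axis) of 1 kb windows with at least 3 CpGs against distance in kb from the downstream CpG-rich start along Runx1, Runx3 and Cbfa2t3; points are mice, lines join group means across gaps with no measured window, dotted lines mark the listed starts, n = 4 mice per group. Each gene drops close to 0 at its downstream start and climbs within a few kb, where mice of the same group differ visibly.

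The chosen window of Cbfa2t3 is partly methylated and lies where levels climb away from the second start. This 1 kb window lies 3175 to 4174 bp downstream of that start and inside the gene; whether it is exonic or intronic was not analysed here. It held 10 measured CpGs within 179 bp (chr8:122674024-122674203). Its read-weighted level was 47.7%, 49%, 59.6% and 54.8% in knockout mice 25, 28, 45 and 46 and 37.1%, 33.0%, 34.5% and 44.9% in control mice 1, 34, 36 and 37. All 4 knockouts lay above all 4 controls; the window was chosen for this difference. The means were 52.8 ± 5.48% and 37.4 ± 5.27%, with 2238 to 3753 reads per mouse. With each CpG weighted equally they were 50.1 ± 4.52% and 32.0 ± 4.61%. Leaving out each mouse in turn gave differences of 13.1 to 17.9 points, and the difference was 15.6 points without knockout mouse 25 and control mouse 34. With all 4 knockouts above all 4 controls, no such omission could reverse the sign. These values therefore do not test the difference.

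The 10 CpGs of the window did not behave as a block. Their mean levels over all mice ranged from 12.4% at 122674112 to 75.8% at 122674195. The group mean was higher in the knockouts at 9 CpGs, by 5.31 to 35.7 points, and the difference was -2.61 points at 122674112. At 5 CpGs every knockout lay above every control, a pattern seen at 1.36% of autosomal CpGs from 5 to 95% (2.77% in either direction); since the window was chosen on these values, nothing is read from that count. The widest difference was at the last CpG, 122674203, where the knockouts had 73.4%, 100%, 66.3% and 70.9% and the controls 40.4%, 29.2%, 36.1% and 62.0%. At the first CpG, 122674024, knockout mouse 28 had 16.6%, below all 4 controls.

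Each strand of the window was read separately. On the forward strand the knockouts had 44.9 to 58.2% and the controls 27.3 to 38.7%. The reverse strand gave 49.5 to 61.1% in the knockouts and 35.4 to 54.7% in the controls, where control mouse 37 overlapped them. The mice were not read at the same cytosines. The forward strand had 9 in knockout mice 45 and 46 and 8 in the others. The reverse strand had 10 in knockout mouse 28 and control mouse 36 and 7 in the others. How far this moved the strand levels was not tested. Both strands belong to the reads on which the window was chosen, so neither is separate support.

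**Figure D3:**
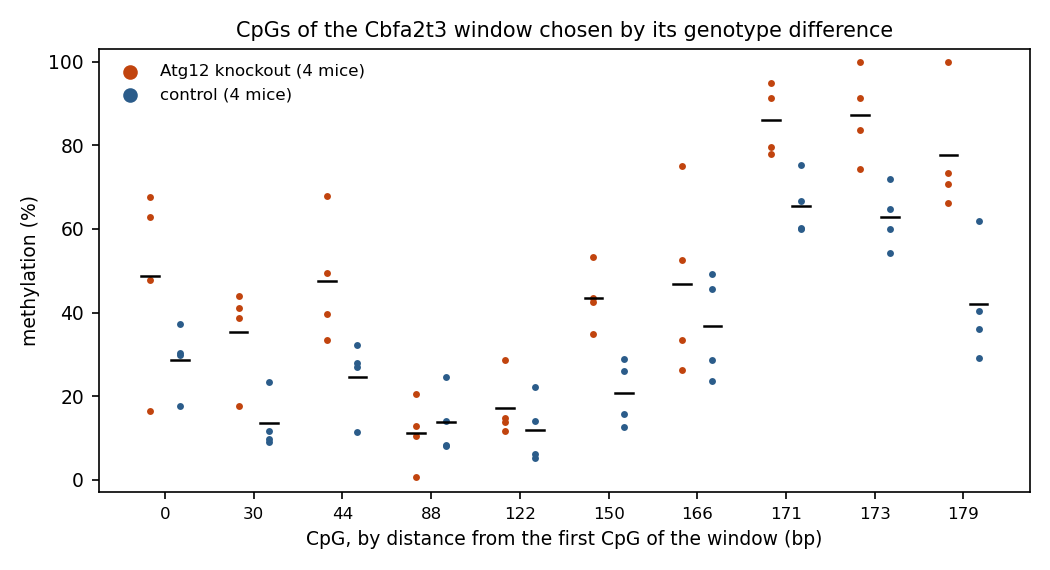
Methylation (percent, y axis) of the 10 CpGs of the chosen Cbfa2t3 window, placed by distance in bp from its first CpG (categories, not to scale); points are mice, black bars are group means, n = 4 per group. The group mean of the knockouts is the higher at 9 of the 10 CpGs, and mice of a group differ widely at single CpGs.

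The nearest measured neighbour had the lower mean in the knockouts, and it was not called. The 1 kb windows touching it on either side had no measured CpG. This neighbour, chr8:122676001-122677000, lies between it and the start and held 9 CpGs. The knockouts had 40.8%, 45.7%, 58.0% and 49.8% and the controls 50.8%, 56.2%, 50.2% and 49.5%. The groups overlapped, with 48.6 ± 7.27% and 51.7 ± 3.04% (moderated quasi-binomial test, adjusted p = 0.919). With CpGs weighted equally the order was the opposite of that in the chosen window. The knockouts then had 32.3 to 38.3% and the controls 41.7 to 44.6%. No autosomal window was called in the fit with equal weights. With levels weighted by reads, every knockout lay below every control in 2% of all tested windows. That share was not computed with equal weights. The CpG nearest the chosen window, 122676061, contributed most to the equally weighted difference. It had 54.5%, 72.0%, 27.4% and 69.2% in the knockouts against 80.6% in control mouse 36 and 100% in the other 3 controls, on 31 to 120 reads. Closer to the start, levels dropped to 3.01% (16 CpGs) and 0.287% (95 CpGs) in the next 2 windows.

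Apart from the chosen window, 37 windows of these genes had a mean level from 5 to 95% and were tested within the fit over all autosomes. None was called at an adjusted p under 0.05, and none was called among all 39828 windows tested (0%). At an unadjusted p under 0.05 there were 5 of 37 (13.5%), against 6.50% of all windows. Of the 5, 4 were higher and 1 was lower in the knockouts, while over all windows 2.09% passed as higher and 4.41% as lower. With levels weighted by reads, the groups did not overlap in 2 of the 37 windows (5.41%), against 3.47% of all windows; with CpGs weighted equally the groups overlapped in both of these. By direction alone, 22 windows were higher and 15 lower, with a median difference of 0.40 points, and over all autosomal windows 47.3% were higher with a median of -0.27 points. Without control mouse 34 the split was 18 higher and 19 lower, with a median of -0.26 points, and without knockout mouse 46 the median was 1.40 points.

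**Figure D4:**
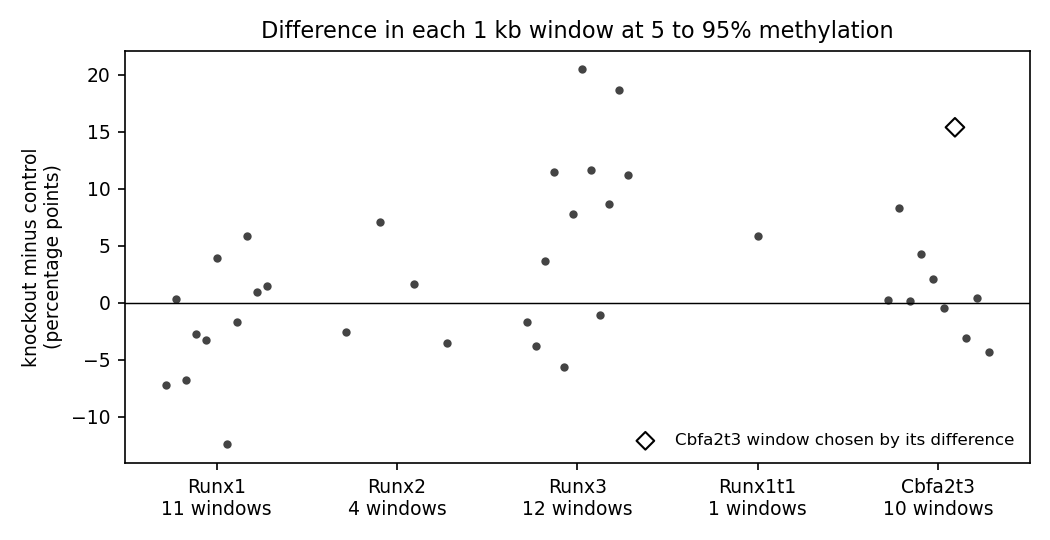
Knockout minus control difference (percentage points, y axis) in each 1 kb window with a mean level from 5 to 95%, by gene; each point is a window and the open diamond is the Cbfa2t3 window chosen by its difference. Most windows of Runx3 lie above 0, and those of Runx1, Runx2 and Cbfa2t3 scatter on both sides; Cbfb and Cbfa2t2 had no such window.

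Single CpGs gave a similar picture. Of 316 CpGs tested outside the chosen window, none was called, against 1 of 311826 on all autosomes (0.000321%). At an unadjusted p under 0.05 there were 39 (12.3%), of which 27 were higher and 12 lower in the knockouts; over all CpGs 6.56% passed, 2.41% as higher and 4.15% as lower. Runx3 contributed 18 of the 39 (107 tested, 15 higher), Runx1 12 (91 tested, 8 higher) and Cbfa2t3 7 (64 tested, 4 higher). CpGs of a window are read on the same fragments and are not independent of each other.

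Runx3 supplied 3 of the 5 windows with an unadjusted p under 0.05, and all 3 were higher in the knockouts. Of its 12 tested windows, 8 were higher, with a median difference of 8.21 points. Knockout mouse 46 was the highest mouse in 6 of the 12 windows and control mouse 34 was the lowest in 4. Without knockout mouse 46 the median difference was 3.36 points, without control mouse 34 it was 6.08, and 8 of 12 windows stayed on the higher side in each case. How far these 2 mice make up the Runx3 pattern was not tested further.

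The Runx3 window with the smallest p lies near the 3′ end of the gene, at chr4:135175001-135176000. Over its 27 CpGs the knockouts had 56.4%, 52.8%, 62.2% and 78.8% and the controls 47.3%, 30.6%, 47.3% and 50.2%. The groups did not overlap, at 62.5 ± 11.5% and 43.8 ± 8.91%, with 4058 to 10157 reads per mouse. With each CpG weighted equally the means were 69.3 ± 10.7% and 54.1 ± 7.24%, and control mouse 1 (59.8%) lay above knockout mouse 28 (59.4%). The moderated quasi-binomial test gave an unadjusted p of 0.00325 and an adjusted p of 0.626, and over the alternatives the adjusted p ranged from 0.347 to 0.999. Of the 27 CpGs, 24 were higher on average in the knockouts and 2 were lower. At 3 of them the groups did not overlap, all with the knockouts higher, against 1.36% of autosomal CpGs in that direction. Since the window was named for its smallest p and its CpGs share fragments, nothing is read from these counts. In read-weighted levels the lowest knockout and the highest control were 52.8% and 50.2%, a gap small beside the spread within each group.

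A second stretch of Runx3 lies downstream of its CpG-rich start, where methylation climbs from the unmethylated stretch into the gene body. At chr4:135155001-135156000 (16 CpGs, 2456 to 3455 bp downstream), the knockouts had 40.2%, 55.7%, 66.8% and 81.1% and the controls 44.9%, 24.3%, 47.3% and 45.4%. Knockout mouse 25 lay among the controls and the other 3 knockouts lay above all of them. The difference of 20.5 points had an adjusted p of 0.698 in the moderated quasi-binomial test and was 16.2 points with CpGs weighted equally. The windows on either side differed by 7.79 points (3 CpGs) and 11.6 points (4 CpGs), with overlapping groups and adjusted p of 0.980 and 0.792. The remaining Runx3 window with an unadjusted p under 0.05, chr4:135147001-135148000 (4 CpGs), had 76.3 ± 6.38% and 64.8 ± 4.42% (adjusted p = 0.731).

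**Figure D5:**
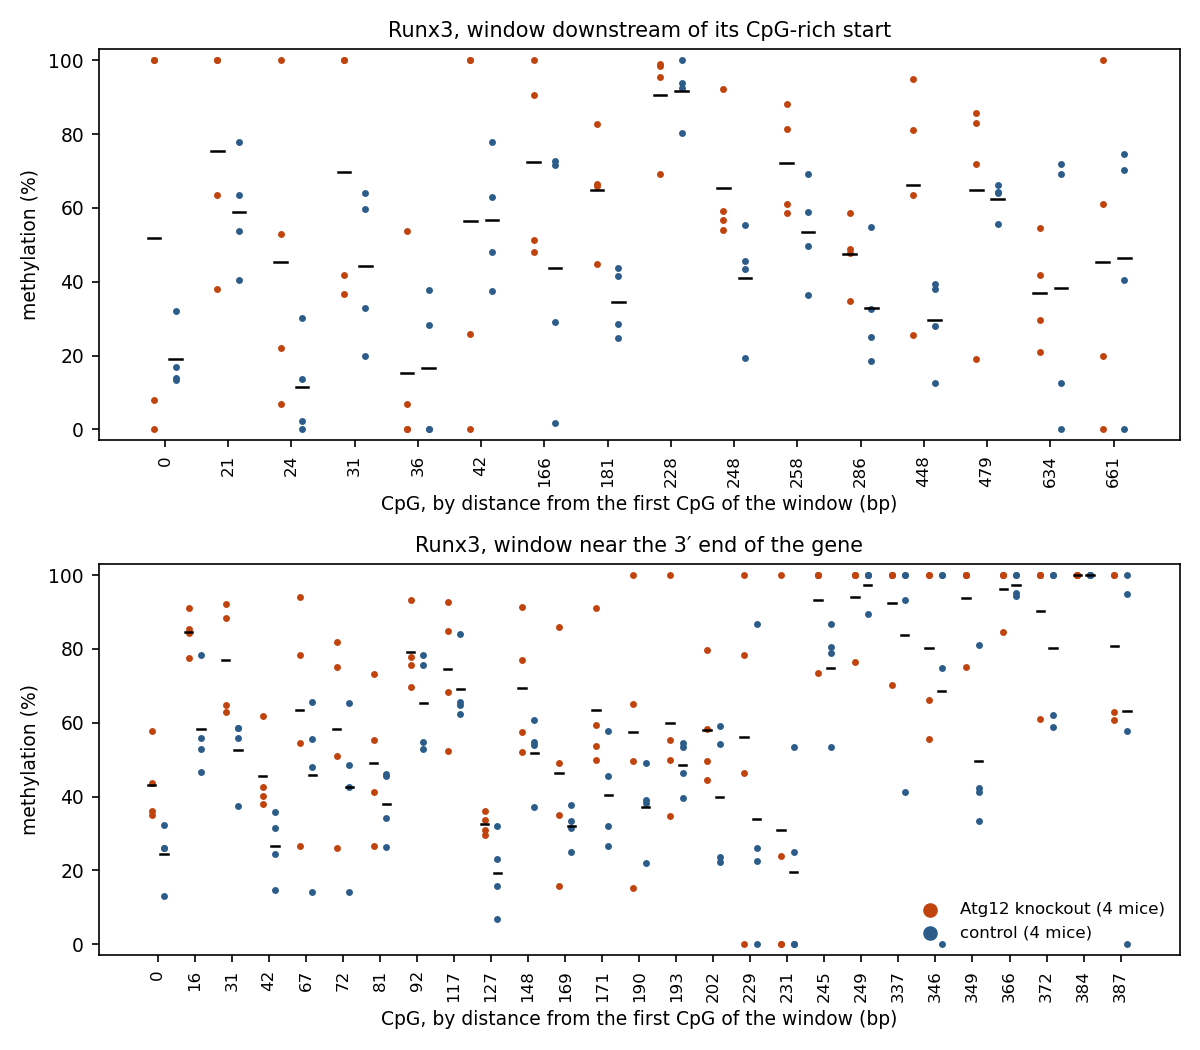
Methylation (percent, y axis) of the CpGs of 2 Runx3 windows, downstream of the CpG-rich start (16 CpGs, top) and near the 3′ end (27 CpGs, bottom), placed by distance in bp from the first CpG of the window (categories, not to scale); points are mice, black bars are group means, n = 4 per group. In the lower panel 24 of 27 knockout means are the higher, with single mice spread over much of the scale.

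In the remaining genes the window with the smallest p was not called either. Cbfa2t3 had a highly methylated window at chr8:122635001-122636000 (12 CpGs), with 95.4%, 96.0%, 98.2% and 98.2% in the knockouts against 94.6%, 89.2%, 95.1% and 91.6% in the controls. These read-weighted groups did not overlap, and the difference was 4.31 points (adjusted p = 0.626). With CpGs weighted equally the groups overlapped and the difference was 2.35 points. In Runx2, chr17:44517001-44518000 (4 CpGs) had 80.4 ± 2.16% and 73.3 ± 10.1% (adjusted p = 0.785). Control mouse 34 stood at 88.2% there, above all others, and without it the difference was 12.1 points instead of 7.08. With CpGs weighted equally it was 3.39 points. In Runx1t1, chr4:13751001-13752000 (12 CpGs) had 20.4 ± 4.62% and 14.6 ± 6.71% (adjusted p = 0.819); the difference of 5.87 points was 3.19 without control mouse 34 and 1.31 with CpGs weighted equally. Cbfb and Cbfa2t2 had no window from 5 to 95%.

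The single window that was lower in the knockouts at an unadjusted p under 0.05 lay at the downstream start of Runx1, chr16:92696001-92697000, 329 to 1328 bp downstream of it. The knockouts had 19.2%, 8.32%, 23.6% and 22.5% and the controls 26.1%, 33.8%, 22.9% and 40.6%, so control mouse 36 lay among the knockouts (18.4 ± 6.97% and 30.8 ± 7.94%; moderated quasi-binomial adjusted p = 0.705). The window held 13 CpGs of very unequal level. The 3 CpGs above 50% averaged 94.5 ± 5.10% in the knockouts against 93.9 ± 3.97% in the controls, and the other 10 averaged 3.36 ± 2.48% and 3.29 ± 1.47%. What differed was the share of reads on those 3 CpGs, 16.1 ± 9.52% in the knockouts against 30.5 ± 7.99% in the controls. With each CpG weighted equally the difference was 0.21 points and the window means were 24.4% and 24.2%.

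Genes that work with these factors were low at their starts as well. Of 28 partners and cofactors of Runx and ETO proteins, 20 had a start with at least 3 CpGs covered in all 8 mice and all 20 were under 5%, with a median of 0.194%. Their 69 tested windows held 0 called windows, 37 were higher and 32 lower in the knockouts, and 3 in each direction had an unadjusted p under 0.05, where 2.09% of all windows passed as higher and 4.41% as lower. Of 16 genes known as direct Runx targets, only 4 had a measured start. Spp1, encoding osteopontin, had 23.5% over 4 CpGs, and Itga2b, encoding the platelet integrin αIIb, had 14.5% over 7 CpGs, while the other 2, Pf4 and Zbtb7b, were under 5%. Over the mice Itga2b ranged from 13.6 to 15.5%, and Spp1 from 16.7% in control mouse 34 to 25%. A mean over so few CpGs does not show whether each of them was partly methylated. In knockout mice 25, 45 and 46 and control mouse 37 the Spp1 mean was 25%. A single fully methylated CpG among 4, with the others unmethylated, would give that mean. The levels of the single CpGs were not examined. The 17 tested windows of the targets split into 9 higher and 8 lower, with 0 called and 0 at an unadjusted p under 0.05 in either direction by the same test.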

How the data were processed

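Enhanced reduced representation bisulfite data of sorted stem cells from 4 knockout and 4 control mice were used, 1 deposited table per mouse. Coverage is the authors' read count per cytosine, at least 10 in every deposited row, and the methylation values are the authors' percent of reads showing C or T, per the file headers. The submitters' processing notes name CASAVA 1.8.2, Bismark and mm10; how reads were trimmed, filtered or deduplicated was not given in the sources used here. Read numbers overstate precision, since without molecular identifiers reads may be copies of 1 molecule.

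Methylated and unmethylated reads were recovered as coverage times percent, rounded to whole reads, and strands were added. A CpG was dropped where any mouse exceeded its 99.9th percentile of coverage, and chromosomes 1 to 19 were kept. Windows of 1000 bp needed 3 CpGs covered in all 8 mice. Windows and CpGs from 5 to 95% were tested with a logistic model of reads on genotype with quasi-binomial overdispersion moderated by limma 3.58.1 (R 4.3.3) and not below 1. Gene means of at least 10 CpGs, equally weighted, were tested with limma. Benjamini-Hochberg adjustment ran over all autosomal features. edgeR 4.0.16 and limma on log2 ratios were alternatives. Scripts were tested on simulated data. Named windows were those with the smallest p in each gene, the chosen Cbfa2t3 window and its neighbours, plus the Runx3 windows downstream of its CpG-rich start, which were chosen after their values were seen. The window directions with mice left out were also added after seeing the data. The genes and lists were chosen with earlier results of these data known. The mouse numbers of the groups share none, so nothing was paired.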

Additional observations from a re-analysis of the deposited data

Results flagged for a closer look

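In 56 groups of 4 mice (gene means, starts and described windows), 6 had a mouse set apart from the other 3 by most of the group's range; chance sets apart about 1 group in 20. Control mouse 34 accounted for 3 of them. It was the lowest control in the Runx3 window near the 3′ end, at 30.6% against 47.3 to 50.2%. In the Runx3 window downstream of the CpG-rich start it was again the lowest control, at 24.3% against 44.9 to 47.3%. In the Runx2 window chr17:44517001-44518000 it was the highest, at 88.2% against 66.4 to 69.9%. This mouse also had the lowest coverage ratio of methylated to unmethylated CpGs (0.178); its part in these values was not tested beyond leaving it out.

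The other 3 were knockouts. Mouse 45 had 50% at the 2 CpGs near the distal Runx3 start, where the others had 97.9 to 100%. Mouse 28 had 0.301% near the distal Runx1 start, where the others were listed at 0. The Runx2 gene mean of mouse 25 was 22.1% against 22.6 to 22.7%.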

How the results depend on the processing

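No window and no CpG of these genes outside the chosen window was called under any alternative that was run. Over all autosomes the windows called were 0 to 24 when a mouse was left out (24 without control mouse 34, 2 without knockout mouse 45, 1 without knockout mouse 25) and 3 without knockout mouse 25 and control mouse 34, a setting added after the data were seen. Autosomal CpGs called were 1, and 2 with a minimum of 20 reads, 23 with no upper coverage limit, and 0 with no level filter, with limma on log2 ratios, without any 1 mouse, and without both mice. Weighting CpGs by coverage turned the gene mean difference of Runx1 to -3.59 points, Runx3 -0.78, Cbfa2t3 -3.46, Cbfa2t2 -0.63, Runx1t1 -0.53 and Cbfb -0.20. CpGs in at least 3 mice of each group gave Runx1 -0.62 and Runx2 0.45. Leaving out each mouse gave -0.23 to 0.55 for Runx1 (negative without knockout mice 25 (-0.23) or 28 (-0.17) or control mouse 34 (-0.012)), -0.14 to 0.090 for Runx2 (0.090 without knockout mouse 25, 0.021 without control mouse 37), -0.011 (without knockout mouse 28) to 0.077 for Cbfb, and -0.093 (without control mouse 34) to 0.40 for Runx1t1 (-0.0097 without knockout mouse 45), with 1.32 to 3.56 for Runx3, 0.17 to 0.33 for Cbfa2t2 and 0.33 to 1.35 for Cbfa2t3. Without knockout mouse 25 and control mouse 34 the differences were -0.40 for Runx1, 0.015 for Runx2, -0.049 for Runx1t1 and 0.12 for Cbfa2t2. The cause was not tested. The Runx1 window lower in the knockouts had a difference of 0.21 with CpGs weighted equally, and no value at a minimum of 20 reads. No paired analysis was possible because the mouse numbers of the 2 groups share none.

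The distal Runx starts and most target gene starts were read at few CpGs or none.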

Other observations

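The levels of the chosen Cbfa2t3 window over the 8 mice were compared with those of 39827 other autosomal windows. The windows most like it in protein-coding genes lay in Sppl2c (chr11:104186001-104187000, 6 CpGs, Pearson r = 0.981), Pou3f3 (chr1:42699001-42700000, 3 CpGs, r = 0.980) and Slit3 (chr11:35289001-35290000, 5 CpGs, r = 0.965). These are the highest of many values over 8 mice in 2 groups and describe the likeness only. Windows picked for likeness to a window with higher knockouts have higher knockouts too, so nothing is read from their differences. In the Slit3 window the knockouts had 52.4%, 55.8%, 65.3% and 64.0% and the controls 45.1%, 44.8%, 46.1% and 50.2%. The Sppl2c window had 64.3 ± 3.66% and 55.6 ± 2.53%, and the Pou3f3 window 15.8 ± 3.01% and 9.18 ± 1.82%.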
